A study of Mus musculus with 4 samples.

Results

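The 10 genes described here encode RNA polymerase I and the factors that bring it to the ribosomal RNA genes, 10 of the 23235 gene rows measured. They were chosen by name: Ubtf, Taf1a, Taf1b, Taf1c, Taf1d, Rrn3, Polr1a, Polr1b, Polr1c and Polr1e. Poly(A) RNA of mouse oocytes was read by Smart-seq2, a full-length cDNA method for very small inputs, in 4 libraries of 10 oocytes each. Control mice were Dcaf13 fl/fl on a C57B6 background, and deletion mice were Dcaf13 fl/fl;Gdf9-Cre, with the recombinase under an oocyte promoter, that of Gdf9. Mice of about 14 days gave the growing oocytes. Fully grown oocytes were taken at 23 days, 48 h after 5 IU of PMSG, a gonadotropin that stimulates follicles. All animals thus carried the floxed alleles, and stage, age and PMSG cannot be told apart.

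RNA polymerase I has a single main task, transcription of the large ribosomal RNA precursor in the nucleolus. The upstream binding factor UBTF coats the active ribosomal genes, the selectivity factor SL1 (TBP with TAF1A, TAF1B, TAF1C and TAF1D) binds their promoter, and RRN3 links the polymerase to SL1. In mouse oocytes the nucleolus is very active during growth and ribosomal RNA synthesis largely stops as the oocyte reaches full size. DCAF13 takes part in ribosome assembly in the nucleolus and recruits substrates to a CRL4 ubiquitin ligase.

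Values are FPKM, fragment numbers scaled to transcript length and library size, so levels of different genes can be set side by side per length. There was 1 library per group, so values carry no replicate error and nothing could be tested. Differences are given in log2(FPKM + 1), where changes of weakly expressed genes come out too small. "Higher" and "lower by the rule" mean a difference of 1 or more on that scale, with one library of the pair reaching 5 FPKM. Of the 10 genes, 9 reached 1 FPKM and 8 reached 5 FPKM in at least 1 library, and 6 were at 5 FPKM or more in all 4.

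The deposited symbol column and value columns run in different sort orders, and values were assigned to symbols in byte order, an inference from the data. All 10 genes move by 2 rows under it. Of the 67 rows that the table places on unplaced mm9 sequence, 65 were at 0 in all 4 libraries after re-pairing and 19 as deposited, against 22.2% of all rows. Dcaf13 itself stood at 96.1 and 38.9 FPKM in growing control and deletion oocytes and at 160.2 and 64.0 in fully grown ones, with the same row in both orders. All 18 oocyte markers reached 1 FPKM in some library, with summed levels of 32000 to 35700. Summed over 10 granulosa markers, 6 of them at 1 FPKM or more in some library, the level was 34.4 FPKM in growing controls and 16.9 in growing deletion oocytes, then 27.5 in fully grown controls and 30.4 with the deletion, and values are listed in that order of libraries throughout. Theca and stroma markers summed to at most 1.53, immune markers to at most 3.62 and blood markers to at most 0.128 FPKM. Among the theca and stroma markers Lum was at 0 throughout, as were Tyrobp of the immune markers and 4 of the 5 blood markers, all globin genes. The granulosa sum was thus lowest in the growing deletion library, where Ubtf and Taf1c were highest, and its part in their values was not tested. Cyp19a1 was the largest part of that sum in every library, at 17.7, 7.75, 19.0 and 16.8 FPKM. Amh and Foxl2 were at most at 0.213 and 0.367 FPKM.

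Promoter sequence of 3 of the genes is shown because their RNA behaved differently: Ubtf and Taf1c varied most between libraries, and Rrn3 was steady over growth. The stretches come from RefSeq (GRCm38.p6), lie within the 250 bases before a transcript start, leave out bases in annotated exons and read 5′ to 3′ on the strand of the gene. They cover chr11:102319097-102319323 on the minus strand for Ubtf, 1 of 6 start sites in the table, chr8:119605223-119605456 on the minus strand for Taf1c, 1 of 2 start sites, and chr16:13780449-13780698 on the plus strand for Rrn3. Capitals mark matches on either strand to the letters searched: the GC box GGGCGG, the CCAAT box, the TATA box as TATAAA, the E box CACGTG, the cAMP response element TGACGTCA, the NRF1 half-site as GCATGCGC and the ETS letters GGAAGT.
Ubtf: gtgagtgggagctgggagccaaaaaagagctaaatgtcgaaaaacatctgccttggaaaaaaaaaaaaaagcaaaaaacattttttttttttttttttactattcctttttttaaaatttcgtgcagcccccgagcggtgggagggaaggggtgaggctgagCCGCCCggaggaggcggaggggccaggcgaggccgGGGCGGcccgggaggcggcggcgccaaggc
Taf1c: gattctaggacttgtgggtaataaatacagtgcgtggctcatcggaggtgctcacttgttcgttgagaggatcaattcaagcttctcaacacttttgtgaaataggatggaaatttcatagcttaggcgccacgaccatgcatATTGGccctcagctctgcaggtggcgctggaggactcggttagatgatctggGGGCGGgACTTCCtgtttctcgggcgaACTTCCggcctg
Rrn3: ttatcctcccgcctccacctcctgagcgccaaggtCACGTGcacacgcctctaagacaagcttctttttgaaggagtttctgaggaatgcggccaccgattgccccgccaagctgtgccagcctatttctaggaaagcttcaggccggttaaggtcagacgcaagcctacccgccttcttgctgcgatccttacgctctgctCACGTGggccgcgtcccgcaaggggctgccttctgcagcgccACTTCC

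Counted over the full 250 bases, exons included, the Ubtf window held 2 matches to GGGCGG and none to the other letters. The Taf1c window held 1 match to GGGCGG, 1 to CCAAT and 2 to GGAAGT. The Rrn3 window held 2 matches to CACGTG, which is found in 6.02% of the 32851 windows in the table, and 1 to GGAAGT. Of the 10 genes, 6 had GGGCGG (32.7% of all windows), 3 had CCAAT (33.8%), 4 had GGAAGT (19.7%), 1 had GCATGCGC (2.26%) and none had TATAAA (12.4%) or TGACGTCA (1.55%), 1 window a gene. For Taf1b, Polr1c and Taf1d, 222, 225 and 204 of the 250 bases lay in annotated exons. The letters CG occurred 7 (Taf1b) to 32 (Polr1c) times in the windows of the 10, where the median of all windows was 6. A match is only a run of letters.

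The 10 genes differed widely in level. Averaged over the 4 libraries Taf1b was at 50.6 FPKM, Taf1d at 38.2, Rrn3 at 34.3, Polr1c at 16.4 and Polr1e at 14.0. Below them came Polr1a at 6.41, Ubtf at 5.59, Polr1b at 2.34, Taf1c and finally Taf1a, listed at 0. With 1 library a group, it is not known which neighbours in this order differ beyond library error. The means hide different courses, since Polr1c, Ubtf and Taf1c ranged several-fold between libraries while Taf1b, Taf1d and Rrn3 kept close to their own levels.

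**Figure D1:**
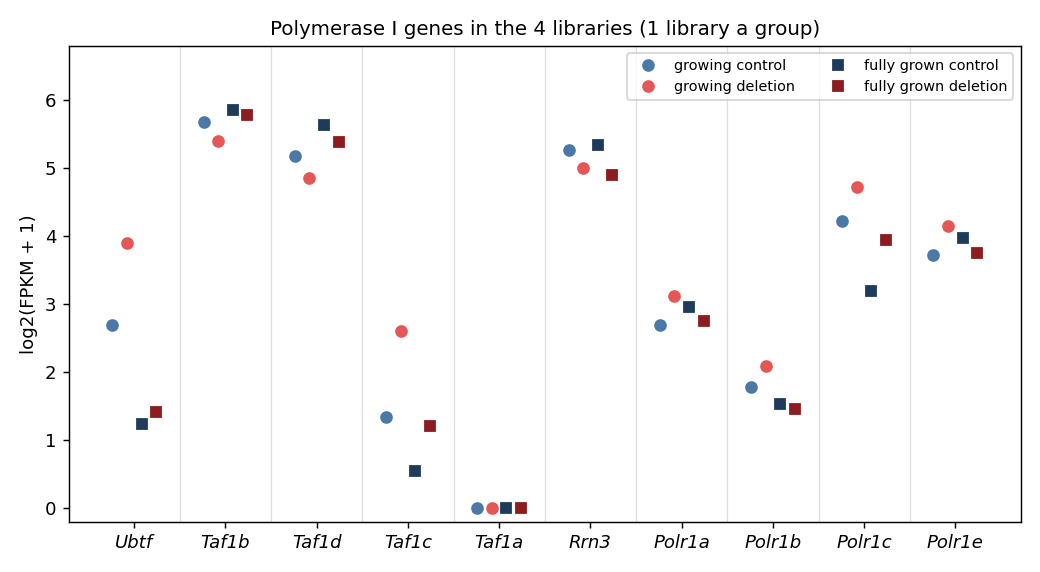
Level of each polymerase I gene, as log2(FPKM + 1) on the vertical axis, in the 4 libraries, each point being 1 library of 10 oocytes. Ubtf ranged from 1.37 to 13.9 FPKM and Taf1c from 0.456 to 5.11, both highest in growing deletion oocytes, while Taf1b stayed between 41.0 and 57.0 and Taf1a was listed at 0 throughout.

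Loss of Dcaf13 while the oocyte enlarges was read from the growing libraries. Of the 10 genes, 6 were above and 3 below control, where 58.0% of 11501 genes at 1 FPKM or more were above. Ubtf and Taf1c, 2 of the 10, were higher by the size rule. None was lower by it. Among the 8010 genes that reached the minimum, 2.62% were higher by the rule and 2.51% lower. The median difference of the 10 was 0.36, with Taf1a counted at 0, and 0.41 for those at 1 FPKM or more. For all 11501 genes at 1 FPKM or more it was 0.08. The 4 polymerase subunits among the 10 were all above control, and the abundant factors Taf1b, Taf1d and Rrn3 were all below it.

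Ubtf (chromosome 11, minus strand, 102165874 to 102180410, mm9) encodes the factor that marks active ribosomal genes along their length. It stood at 5.48, 13.9, 1.37 and 1.67 FPKM in the 4 libraries. The growing deletion library was thus 2.53 times its control, a difference of 1.20, and the growing libraries lay above both fully grown ones. In fully grown oocytes the deletion library was 1.22 times control, a difference of 0.17, with both values under the minimum of the rule. The difference between these 2 effects was -1.02, where the 5th and 95th percentiles over all 8235 genes at 5 FPKM in some library were -0.76 and 0.68. Those percentiles take in far more abundant genes and were not computed for genes of the level of Ubtf.

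The Ubtf transcript has a GC content of 54.1%, above the median of 49.7% for expressed genes. Across genes, the growing deletion difference went with GC content (Spearman's rho 0.37 over 7934 genes, which share both libraries), with a median of -0.07 under 45% GC and 0.31 at 55% and over. After a smooth trend with GC content and transcript length was removed, Ubtf was at 1.09 and still higher by the rule. Among genes whose larger value lay between 5 and 20 FPKM, as for Ubtf, 3.95% were higher by the rule, against 1.47% of those at 20 FPKM or more.

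Taf1c (chromosome 8, minus strand, 122121874 to 122129140, mm9) encodes an SL1 subunit that contacts the ribosomal promoter. Its values were 1.54, 5.11, 0.456 and 1.30 FPKM. Each deletion library was well above its own control, 3.33 times in growing and 2.86 times in fully grown oocytes. On the log2 scale these were differences of 1.27 and 0.66, and with a pseudocount of 0.1 in place of 1 they were 1.67 and 1.34. Both fully grown values were under the minimum, so the rule could not count that stage.

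Taf1c rests on little signal and passed the minimum only through growing deletion oocytes. Genes with transcripts 0.8 to 1.25 times as long had the 5th percentile of their values above 0 at 0.0365 FPKM in the fully grown control library, and Taf1c was 12.5 times that. Its transcript, at 60.9% GC, is above the 90th percentile of expressed genes (57.7%), and without the GC and length trend its growing difference was 0.92, short of the rule, and its fully grown difference 0.29 in place of 0.66. The opposite-strand row that overlaps it, Lrrc50, was at 0.0364, 0.273, 0.105 and 0.0997 FPKM.

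The other SL1 genes did not share this course. Taf1b (chromosome 12, plus strand, 25183446 to 25243436, mm9), whose product resembles a general initiation factor of polymerase II, was at 50.2, 41.0, 57.0 and 54.1 FPKM. Taf1d (chromosome 9, plus strand, 15110658 to 15121441, mm9) was at 35.1, 27.9, 48.8 and 40.8 FPKM. Both were slightly below control in each deletion library, by differences of -0.28 and -0.07 for Taf1b and -0.32 and -0.25 for Taf1d, in growing and then fully grown oocytes, none past the rule. Without the GC and length trend the fully grown values were 0.03 for Taf1b, now above control, and -0.02 for Taf1d. Their transcripts are poorer in GC, at 45.3% and 41.1%, and the growing differences were -0.18 and -0.19 without the trend. The row 5830418K08Rik overlaps Taf1d on the opposite strand at 5.99 to 7.50 FPKM.

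Because Taf1c and Taf1b did not change alike, their ratio differed between libraries. In growing oocytes Taf1b exceeded Taf1c 32.7-fold in controls and 8.03-fold with the deletion, and in fully grown ones 125-fold and 41.5-fold. Taf1b over Taf1d stayed between 1.17 and 1.47. Tbp, the SL1 subunit shared with the other polymerases, was at 52.1, 60.0, 58.5 and 57.7 FPKM, with no difference past the rule.

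Taf1a, the remaining SL1 gene, was listed at 0 in every library. The table places it on unplaced sequence of chromosome 1 (plus strand, 362233 to 383549, mm9), where nearly every row was at 0 as given above. Its absence from oocytes is not shown by these values.

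Rrn3 (chromosome 16, plus strand, 13780792 to 13814934, mm9) encodes the growth-regulated factor that makes the polymerase able to start. It was at 37.6, 31.1, 39.7 and 29.0 FPKM, so both deletion libraries lay below both controls. The differences were -0.27 in growing and -0.44 in fully grown oocytes, neither past the rule, and -0.17 and -0.39 without the GC and length trend. The ratio of Rrn3 to Ubtf was 6.86 in growing control and 2.24 in growing deletion oocytes, and 29.0 and 17.3 in fully grown control and deletion oocytes.

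**Figure D2:**
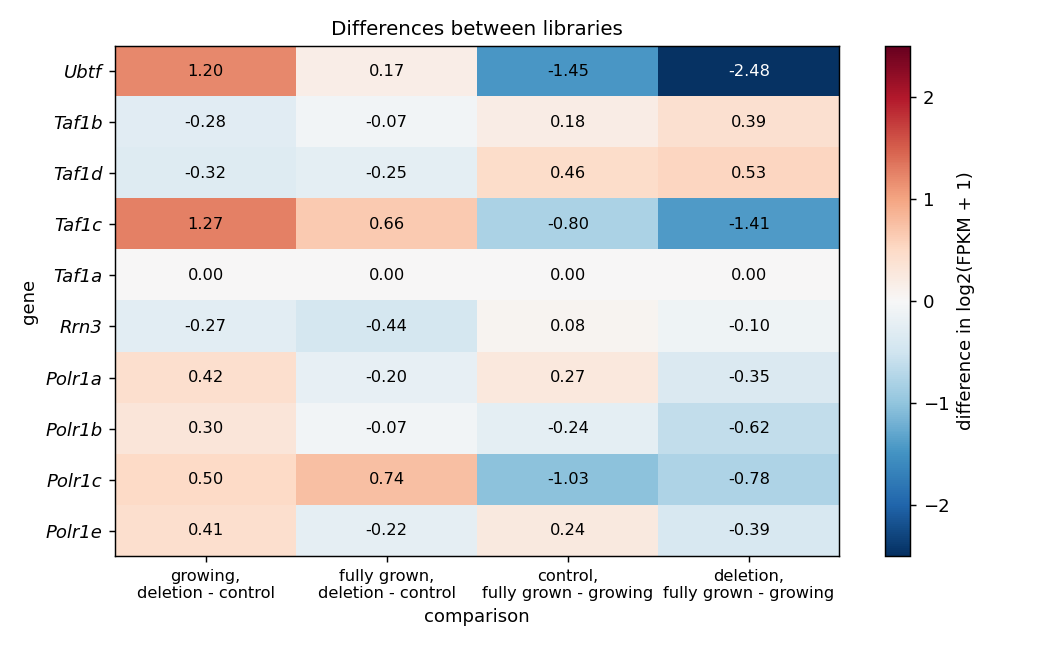
Difference in log2(FPKM + 1), printed and coloured, for each polymerase I gene (rows) in the 4 comparisons of 2 libraries (columns). Ubtf (1.20) and Taf1c (1.27) had the largest differences in growing deletion oocytes and the lowest ones over growth of deletion oocytes (-2.48 and -1.41), while Taf1a is listed at 0.

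At the end of growth the deletion was read from the fully grown libraries. Here 3 of the 10 genes were above and 6 below control, where 53.5% of 10899 genes at 1 FPKM or more were above. Only 6 of the 10 reached the minimum at this stage. Ubtf and Taf1c did not, so the rule could not count them. Of those 6, none was past the size rule in either direction. Among the 7413 genes that reached the minimum, 1.08% were higher by the rule and 1.09% lower. The median difference was -0.07 for the 10 and for those at 1 FPKM or more, against 0.03 for all genes at 1 FPKM or more. Polr1c had the largest positive difference (0.74) and Rrn3 the largest negative one (-0.44). With a pseudocount of 0.1 the largest positive one was that of Taf1c (1.34), with Polr1c at 0.81.

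Among the polymerase subunits, Polr1c kept its direction at both stages. It encodes a subunit shared by polymerases I and III (chromosome 17, minus strand, 46380869 to 46384994, mm9) and was at 17.6, 25.3, 8.16 and 14.3 FPKM. The deletion libraries were 1.43 and 1.76 times their controls, differences of 0.50 and 0.74, or 0.35 and 0.66 without the trend. Both growing values lay above both fully grown values.

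Polr1a and Polr1b encode the largest and second-largest subunits, which together form the catalytic centre. Polr1a (chromosome 6, plus strand, 71859047 to 71929355, mm9) was at 5.46, 7.65, 6.77 and 5.77 FPKM. Polr1b (chromosome 2, plus strand, 128926732 to 128952331, mm9) was at 2.44, 3.24, 1.91 and 1.76 FPKM and never reached the minimum of the rule. Both were above control in growing deletion oocytes (0.42 and 0.30) and below it in fully grown ones (-0.20 and -0.07), none past the rule. Polr1a exceeded Polr1b 2.24 to 3.56-fold in each library.

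Polr1e encodes a polymerase I subunit that pairs with the product of Cd3eap and helps in initiation and elongation (chromosome 4, plus strand, 45031497 to 45046564, mm9). It was at 12.3, 16.7, 14.6 and 12.5 FPKM, with differences of 0.41 in growing and -0.22 in fully grown oocytes. Like Polr1a and Polr1b it was highest in growing deletion oocytes. Summed over these 4 subunits, the level was 37.8, 52.9, 31.5 and 34.3 FPKM, so growing deletion oocytes stood above the other 3 libraries. That sum leaves out the other polymerase I subunit genes given below, of which Polr1d and Znrd1 were far more abundant. Of these genes Cd3eap was highest in growing deletion oocytes, while Polr1d, Znrd1 and Twistnb were highest in other libraries. Summed over Taf1b, Taf1c and Taf1d the level was 86.9, 74.1, 106.3 and 96.2 FPKM, lowest in growing deletion oocytes.

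**Figure D3:**
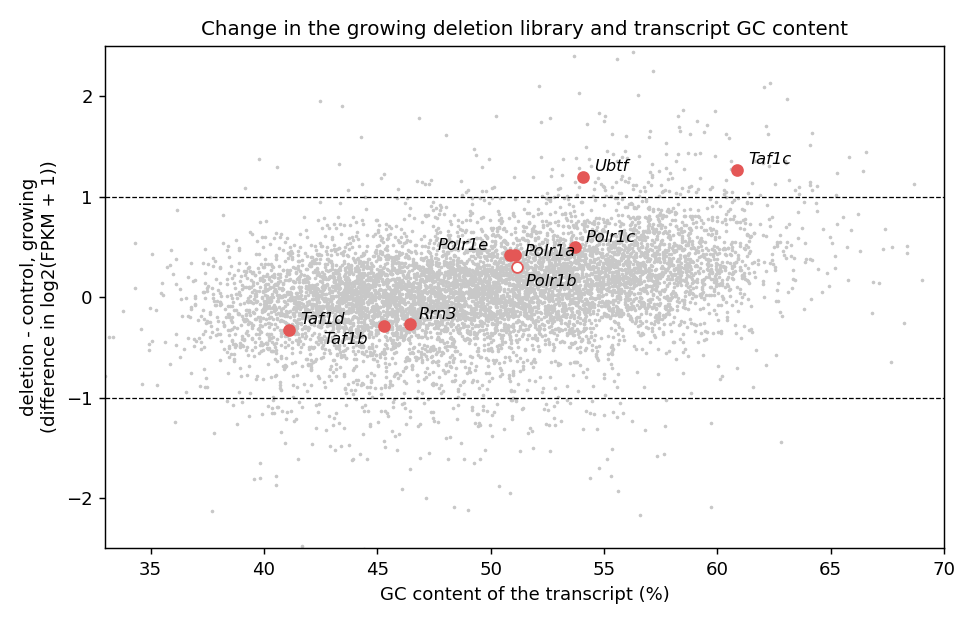
Difference between growing deletion and control oocytes in log2(FPKM + 1) against transcript GC content in percent, for 7934 genes at the minimum of the rule (grey, 32 outside the axes) and the polymerase I genes (red, Polr1b hollow as it is under the minimum), with dashed lines at the rule. Taf1d, Taf1b and Rrn3 lie below 0 at 41.1% to 46.4% GC, and Ubtf (54.1%) and Taf1c (60.9%) lie above 1.

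The order of the genes by GC content was close to their order by growing difference. The 3 genes below control had 41.1% to 46.4% GC, the 4 subunits 50.8% to 53.7%, Ubtf 54.1% and Taf1c 60.9%. Without the GC and length trend the median of the 10 was 0.31 in place of 0.36 in growing and -0.01 in place of -0.07 in fully grown oocytes, and the directions of the 9 detected genes in growing oocytes were as before. In fully grown oocytes the direction of Taf1b turned, as given above, Ubtf came to 0.01 from 0.17, and Polr1b was at -0.15 in place of -0.07.

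Growth without deletion was read from the control libraries. Ubtf and Polr1c were lower by the size rule in fully grown oocytes and none of the 10 was higher, where 3.07% of 7661 genes at the minimum were lower and 1.11% higher. Among genes whose larger value lay between 5 and 20 FPKM, as for Ubtf and Polr1c, 4.72% were lower. Of the rest of the 10, Taf1d (0.46), Polr1a (0.27), Polr1e (0.24), Taf1b (0.18) and Rrn3 (0.08) were above their growing value, and Taf1c (-0.80) and Polr1b (-0.24) below. Without the GC and length trend Taf1d was at 0.14, Taf1c at -0.37 and Polr1b at -0.12. The median difference of the 10 was 0.04, and 0.08 for those at 1 FPKM or more, against -0.10 for all genes at that level. FPKM is a share of each library, and in pools of oocytes fewer cells with a transcript and less RNA per cell cannot be told apart.

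Ubtf in fully grown controls was 25.0% of its growing level, a difference of -1.45, or -1.27 without the GC and length trend. Polr1c was at 46.2%, a difference of -1.03 with the trend kept and removed alike, though -0.997 after rescaling libraries by their median ratio, which is just short of the rule. Taf1c was at 29.7% of its growing level but too low in both libraries to be counted.

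Growth with the deletion was read from the deletion libraries, and the growing one of them also enters the first comparison, so the values that made Ubtf and Taf1c high there enter again. Both were lower in fully grown deletion oocytes by the rule, and none of the 10 was higher, where 8.75% of 7957 genes at the minimum were lower and 2.70% higher. Among genes whose larger value lay between 5 and 20 FPKM, as for Ubtf and Taf1c, 12.6% were lower. Ubtf was at 12.1% of its growing deletion level, a difference of -2.48, and Taf1c at 25.5%, a difference of -1.41, or -0.96 without the trend. Polr1c (-0.78), Polr1b (-0.62), Polr1e (-0.39), Polr1a (-0.35) and Rrn3 (-0.10) were below their growing value, and Taf1d (0.53, or 0.32 without the trend) and Taf1b (0.39) above. The median of the 10 was -0.37, and -0.39 for those at 1 FPKM or more, against -0.12 for all genes at that level.

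The genes most like Ubtf and Taf1c in course were looked for among 7391 named genes at 5 FPKM or more in some library, by the Euclidean distance between the 4 log2 values, each centred on its mean. With 4 libraries such a likeness is a description only. Nearest to Ubtf were Uqcrc1 (distance 0.26), Dpf2 (0.27), Cbfb (0.29), Cct6a (0.30) and Mrps34 (0.31). Uqcrc1, of respiratory complex III, was at 30.1, 66.2, 12.3 and 13.6 FPKM. Nearest to Taf1c were Slc22a18 (0.13), Etfdh (0.14), Rhoc (0.16), Tmed4 (0.21) and Mbp (0.22). Taf1c was itself at a distance of 0.93 from Ubtf and Polr1c at 1.24, while Taf1b, at 2.49, and Taf1d, at 2.70, were far from it.

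Further genes of the pathway came from fixed lists. Of the 4 other polymerase I subunit genes, none was past the rule in either deletion comparison, with differences from -0.02 (Twistnb) to 0.45 (Cd3eap) in growing and from -0.28 (Twistnb) to 0.35 (Cd3eap) in fully grown oocytes. Polr1d, the partner of Polr1c, was the most abundant of them at 571, 588, 618 and 653 FPKM. Twistnb, whose product contacts RRN3, was at 9.96, 9.81, 4.61 and 3.61 FPKM, lower by the rule over growth of deletion oocytes (-1.23) and at -0.97 in controls. Znrd1, a small subunit, was at 94.9, 102.9, 126.4 and 116.9 FPKM, the highest of the list over growth at 0.41 in controls and 0.18 with the deletion.

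Of 11 activators and nucleolar cofactors, 1 was higher by the rule in growing deletion oocytes and none in fully grown ones. This was Mybbp1a, a nucleolar protein that binds the polymerase and holds back ribosomal transcription. It was at 5.84, 14.1, 3.77 and 6.65 FPKM, differences of 1.14 and 0.68. The lowest difference of that list was that of Ercc6 at both stages (-0.37 and -0.34), and its median was 0.23 in growing and 0.00 in fully grown oocytes. Of the 9 genes of termination and silencing, none was past the rule in any comparison, with deletion differences between -0.19 (Ptrf) and 0.38 (Rrp8) in growing and between -0.59 (Suv39h1) and 0.58 (Kdm2b) in fully grown oocytes. Over growth the first list ran from Mybbp1a (-0.52) to Npm1 (0.37) in controls and from Mybbp1a (-0.98) to Top1 (0.41) with the deletion. The second ran from Ptrf (-0.77) to Smarca5 (0.13) and from Ptrf (-0.98) to Kdm2b (0.24). Myc and Ubtfl1, a relative of Ubtf known from early embryos, were at most at 0.241 and 0.101 FPKM.

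**Figure D4:**
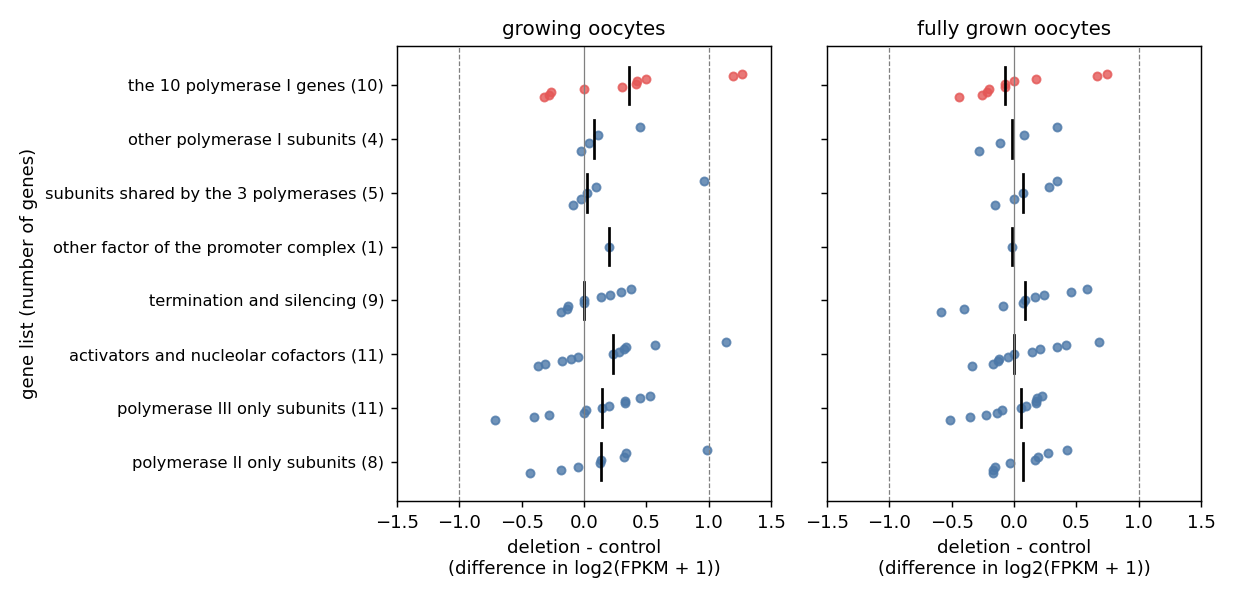
Difference between deletion and control oocytes in log2(FPKM + 1) for each polymerase I gene described here (red) and for 7 other lists (blue) at both stages, with black bars at the medians and dashed lines at the size rule. Ubtf, Taf1c and Mybbp1a are the points past the dashed line in growing oocytes, and none lies past it in fully grown oocytes.

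The other polymerases are given for comparison. In growing deletion oocytes the 8 genes listed under polymerase II alone had a median of 0.13. The 11 listed under polymerase III alone were at 0.14 and the 5 shared subunits at 0.03, none past the rule. Nearest to it were Polr2a (0.99), the largest subunit of polymerase II, at 2.89, 6.71, 1.90 and 2.90 FPKM, and the shared subunit gene Polr2h (0.96), at 32.9, 65.0, 21.9 and 26.9 FPKM. The lowest were Polr2d (-0.43), Polr3k (-0.71) and Polr2l (-0.09), and the highest of polymerase III was Crcp (0.53). In fully grown oocytes the medians were 0.07, 0.06 and 0.07, with extremes at Polr2d (-0.17) and Polr2a (0.43), Polr3k (-0.52) and Polr3d (0.22), and Polr2l (-0.15) and Polr2f (0.34). Over growth of deletion oocytes Polr2h (-1.25) was lower by the rule, and no gene of these 3 lists was past it in controls. Polr3e was lowest of polymerase III in controls (-0.89) and with the deletion (-1.32) but under the minimum in all 4 libraries, with Polr3a (0.02) and Polr3f (0.26) highest. For polymerase II the ends were Polr2m (-0.61) and Polr2d (0.38) in controls and Polr2a (-0.98) and Polr2d (0.64) with the deletion, and for the shared subunits Polr2h (-0.56) and Polr2k (0.61) in controls, with Polr2k at 0.58 in the other comparison. The difference between the polymerase I genes and these lists was not tested.

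The row of the ribosomal RNA precursor, Rn45s, was at 10409, 9914, 11442 and 13105 FPKM. Its differences were -0.07 in growing and 0.20 in fully grown deletion oocytes. In a library primed on poly(A) this value does not measure ribosomal RNA or the activity of the polymerase.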

How the data were processed

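The authors deposited FPKM values, 1 row per gene symbol, for 4 libraries of poly(A) RNA, 1 per group. Per the submitters' processing notes, the tools were Cufflinks 2.2.1, TopHat2 2.0.11, Bowtie2 2.1.0 and CASAVA 1.8, with build mm9 and no roles or settings. Which gene models, strand setting or filters were used is not stated there or in the labels. All 4 per-sample files were identical to the whole table. Depth is not stated, so no counting error can be given, and FPKM do not allow a count test.

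Symbols sorted in byte order were paired with the value rows in file order, and 4113 rows keep their symbol. Differences used log2(FPKM + 1). GC content and length were those of the longest coding transcript in GENCODE M21, found for 99.1% of genes at 5 FPKM or more, and a cubic in GC with a quadratic in log length was removed as an alternative. The other alternatives were a pseudocount of 0.1, a minimum of 1 FPKM, median-ratio rescaling and the deposited pairing. Promoters were those whose start had most annotated transcript starts within 20 bases, though Taf1b and Polr1e, with 1 window each, had none so near. Calculations used Python 3.11.15 with numpy and pandas, and the size rule and trend removal were tested on simulated data. The members, lists and rules were chosen with earlier results of these data known. Named were the 10 genes, list genes past the rule or at the ends of a list, and the 5 genes nearest in course to Ubtf and to Taf1c. One result on a gene of the comparison lists is not reported here. Polr1d, Myc, Ubtfl1 and Rn45s were named after their values were seen.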

Additional observations from a re-analysis of the deposited data

Results flagged for a closer look

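In 3 of the genes the deletion library was above control in growing oocytes and below it in fully grown oocytes, with 1 library on each side and no test of the difference. From growing to fully grown oocytes the deletion difference shifted by -0.62 for Polr1a, -0.38 for Polr1b and -0.63 for Polr1e, in log2(FPKM + 1). Of the 8235 genes at 5 FPKM or more in some library, 18.0% showed the same pair of directions, and all 3 shifts lie between the 5th and 95th percentiles of the shift over those genes, -0.76 and 0.68. All 3 are polymerase subunit genes of 50.8% to 51.2% GC, and none of the 6 differences was past the size rule. Polr1c, the remaining subunit gene of those described, was above control at both stages. Of the other polymerase I subunits Znrd1 showed this pair of directions (0.12 and -0.11), and Polr1d, Twistnb and Cd3eap did not. Tbp, which is no subunit, showed it too (0.20 and -0.02).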

How the results depend on the processing

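With a pseudocount of 0.1 or a minimum of 1 FPKM, each changed alone, each of the 40 values (10 genes in 4 comparisons) stayed on its side of the size rule. For Taf1c this rests on the minimum of 5 FPKM. With the pseudocount of 0.1 it was at 1.34 in fully grown deletion against control oocytes and at -1.56 over growth in controls. Both exceed 1 in size but were under that minimum, and the 2 settings were not changed together. Median-ratio rescaling took 3 of the 40 values short of the rule. It left 1 gene past the rule, where 2 were before, in growing deletion against control oocytes. The same counts held over growth in controls and over growth in the deletion. Taf1c was lost since its highest value came under 5 FPKM, and Polr1c at -0.997. Over all genes, 186 of 7965 were then higher in growing deletion oocytes, where 210 of 8010 were before. Over growth in controls 220 of 7691 were lower (235 of 7661 before), and over growth in the deletion 643 of 7889 (696 of 7957 before). Without the GC and length trend the counts were 1 in growing deletion against control oocytes and 1 over growth in the deletion, both times Ubtf without Taf1c. Over all genes, 129 of 7934 were then higher in the first of these comparisons and 611 of 7882 lower in the second.

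With symbols as deposited, each gene takes the values of another row, and 1 of the 10 was past the rule in growing deletion against control oocytes, 1 over growth in controls and 1 over growth in the deletion. Counts over all genes stay the same under that pairing, since only the symbols move. The median in fully grown deletion against control oocytes was then 0.12 in place of -0.07, and over growth in controls Polr1a was at -1.03 and Polr1c at 0.24. The deposited Ubtf row holds the values that re-pairing gives to Ubxn1. No setting replaces the missing replicates, and no paired analysis was possible because each group held 1 library.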
